A study of Arabidopsis thaliana with 3 samples.

Results

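Plants make most microRNAs in the nucleus, where the ribonuclease DCL1, helped by the double-stranded RNA binding protein HYL1 and the zinc finger protein SE, cuts them out of folded transcripts. HEN1 methylates the resulting duplex, HST, a relative of the exportin-5 of animals, takes part in its export, and AGO1 holds the finished strand and slices or represses matching mRNAs. The related dicers DCL2, DCL3 and DCL4 make small interfering RNAs for antiviral defence, DNA methylation and trans-acting siRNAs, and loss of HYL1 in Arabidopsis leaves plants oversensitive to abscisic acid, the hormone of drought responses.

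The genes described here are these 9 small RNA processing genes, of 26017 loci with a spot on the array. They were chosen by name as the core of the pathway after HYL1 had been seen to be lower in AhNF-YC-OE leaves in recovery, and were matched by locus code: HYL1 (AT1G09700), DCL1 (AT1G01040), DCL2 (AT3G03300), DCL3 (AT3G43920), DCL4 (AT5G20320), SE (AT2G27100), HEN1 (AT4G20910), HST (AT3G05040) and AGO1 (AT1G48410). All 9 had a spot, 1 each, so no member has a second spot as a check. The value that chose the set, the HYL1 ratio in recovery, is given as a description.

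Rosette leaves of 5-week-old Arabidopsis thaliana, ecotype Col-0, grown at 22 °C in days of 16 h light and 8 h dark, were compared on 3 two-colour oligonucleotide arrays. Each array held RNA of the transgenic line AhNF-YC-OE in the Cy5 channel and that of wild type in Cy3, with 1 array for normal growth, 1 for water stress of 5 days and 1 for recovery, taken 24 h after plants stressed for 8 days were watered again. The dyes and their direction are those of the label fields and file headers, while the labelling protocol names Alexa dyes. The name of the line points to raised expression of an NF-YC subunit of the CCAAT-binding factor NF-Y. Its promoter, the number of lines and the plants behind each RNA are in none of the sources used here, and the level of the transgene was not measured here. The arrays have no replicate and no dye exchange, so no value has an error over plants, no difference was tested, and a dye bias of a spot and a genotype difference cannot be told apart. In bulk leaf RNA, fewer cells of a type and less RNA per cell cannot be told apart either.

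The net intensity, which is the spot mean minus its local background in scanner units, had medians over 29234 gene spots of 2972, 757 and 903 in AhNF-YC-OE during normal growth, water stress and recovery, against 4159, 1367 and 1344 in wild type. The level below which 95% of 510 spots annotated as empty lay was 4344, 170 and 90.3 in AhNF-YC-OE in the same order, against 5617, 345 and 206 in wild type. The median log2 ratio of the empty spots after normalization was 0.25, 1.76 and 0.95, so the ratio of very dim spots was not constant between arrays. Spots annotated to 1 transcript agreed little: over 1464 pairs of spots, which are not independent replicates, wild-type levels correlated at 0.0524, 0.0626 and 0.0793. The log2 ratios of these pairs correlated at 0.1103, 0.1035 and 0.1932. Of 7 leaf mesophyll marker genes, 3, 6 and 6 exceeded the 95% level of empty spots in a channel, and of 4 root marker genes 3, 4 and 3 did. In these counts the leaf markers did not stand out from the root markers. Their median intensity percentile in wild type was 51.7, 62.2 and 62.8, against 70.1, 70.6 and 62.0 for the root markers. The gene names below are those the array gives to its spots. Whether each spot reports the gene it is named after was not tested, and these values leave that uncertain. Control features with 8 to 12 spots had a median SD of the log2 ratio of 0.100, 0.148 and 0.127, which covers the spread within an array only.

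In recovery HYL1 lay below wild type in AhNF-YC-OE leaves, while the other 8 genes of the set were within 2-fold of wild type on every array. HYL1, also known as DRB1, guides DCL1 to the right cutting positions. Its net intensity was 17.4, 13.0 and 23.1 in AhNF-YC-OE during normal growth, water stress and recovery, against 76.6, 196 and 472 in wild type. The AhNF-YC-OE channel was thus dim on all 3 arrays, and the wild-type channel was brightest in recovery. The genotype log2 ratio, AhNF-YC-OE over wild type after normexp background correction and loess, was −0.34, −0.01 and −1.72. A log2 ratio of −1.72 is 0.304 of the wild-type value, or 3.29-fold higher in wild type, and 3 of 26006 genes had a lower ratio on that array. Under normal growth 4.78% of genes and under water stress 47.9% had a lower ratio than HYL1.

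Set against the empty spots, HYL1 exceeded 95% of them in wild type in recovery, and neither there in AhNF-YC-OE nor in either genotype on the other arrays. In AhNF-YC-OE it was brighter than 41.4%, 80.6% and 89.6% of empty spots on the 3 arrays, against 54.3%, 92.4% and 97.5% in wild type. Both channels exceeded their own local background plus 2 SD on each array, but the AhNF-YC-OE reading lay within the range of the empty spots on each array, so the size of the ratio is uncertain. With plain background subtraction it was −2.71 in recovery. The raw reading in recovery was 80.8 in AhNF-YC-OE, with an SD over the pixels of the spot of 9.92, against 529 with an SD of 214 in wild type. The SD over pixels was thus the larger in wild type, where the reading was also the brighter.

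**Figure D1:**
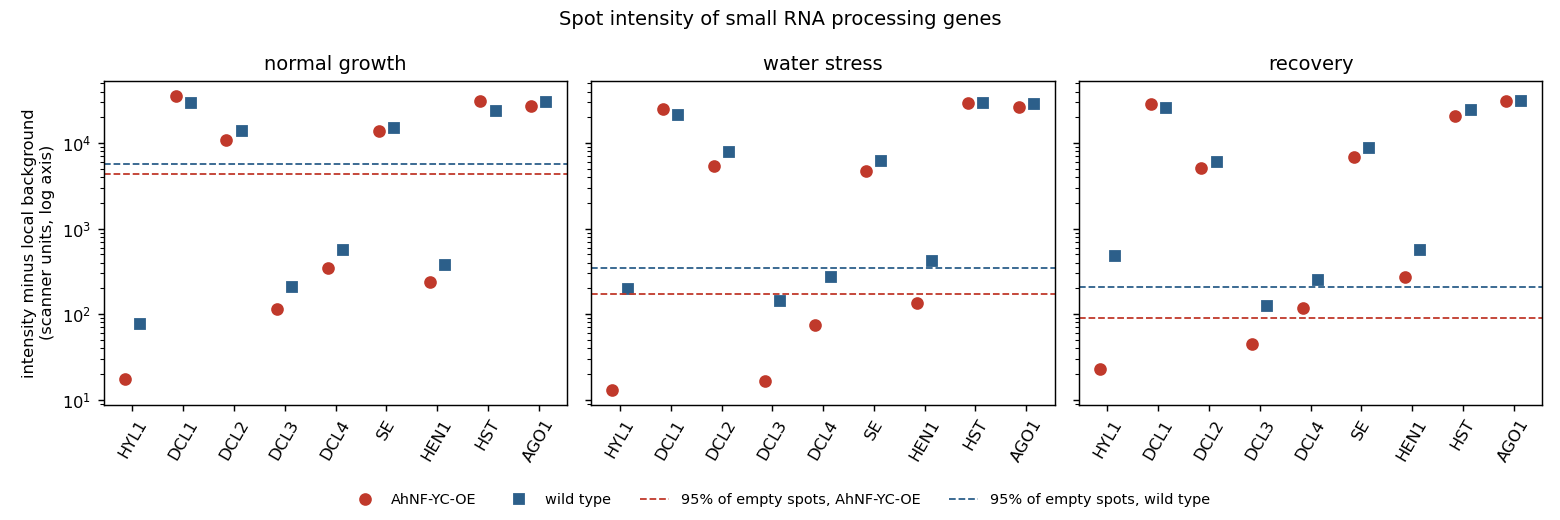
Net intensity (spot mean minus local background, scanner units, log axis) of the 9 genes in AhNF-YC-OE (circles) and wild type (squares) on each array, with dashed lines at the level that 95% of empty spots lie below. The AhNF-YC-OE readings of HYL1 lie between 13.0 and 23.1, below the AhNF-YC-OE line on each array, and in recovery its wild-type reading of 472 lies above the wild-type line at 206.

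Of the 4 dicers, none was 2-fold apart between genotypes on any array. DCL1, the microRNA dicer, had net intensities of 35714, 24714 and 28733 in AhNF-YC-OE during normal growth, water stress and recovery, against 29306, 21320 and 25676 in wild type. Both genotypes were bright on all 3 arrays and close to each other. Its log2 ratios were 0.12, 0.07 and 0.05, positive under every alternative processing tried, and 1 of them reached 2-fold under median centring, at 1.01 under water stress. Ranges over alternatives, here and in what follows, leave out the pair chosen after seeing the data, which are ratios without any within-array normalization and ratios minus the median of the same place in every block. DCL2, which makes siRNAs in antiviral defence, had 10741, 5449 and 5117 in AhNF-YC-OE, against 13987, 7906 and 6052 in wild type. The AhNF-YC-OE reading was the lower on each array, by about as much as the loess curve at that intensity, and the log2 ratios were −0.10, −0.18 and 0.06. The first of these ran from −0.10 to 0.06 over the alternatives and the second from −0.18 to 0.26.

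DCL3, the dicer of siRNAs for DNA methylation, had net intensities of 114, 16.6 and 44.5 in AhNF-YC-OE, against 205, 143 and 124 in wild type. DCL4, the dicer of trans-acting siRNAs, had 349, 74.1 and 118 in AhNF-YC-OE, against 561, 275 and 249 in wild type. Neither was brighter than 95% of empty spots under normal growth or water stress in either channel. In recovery DCL4 was, in both channels, and DCL3 was not. The log2 ratios of DCL3 were −0.11, 0.42 and 0.21 and those of DCL4 were −0.06, 0.43 and 0.12. The positive values under water stress turned to −0.71 for DCL3 and −0.57 for DCL4 under median centring, which makes no allowance for intensity, and those in recovery to −0.26 and −0.25.

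SE, the zinc finger partner of DCL1 and HYL1, had net intensities of 13802, 4756 and 6779 in AhNF-YC-OE, against 14961, 6170 and 8671 in wild type. Its log2 ratios of 0.12, 0.03 and −0.11 were of the order of the SD of control spots, and each took both signs over the alternatives. HEN1, the methyltransferase that protects the small RNA ends, had 239, 135 and 270 in AhNF-YC-OE, against 372, 413 and 560 in wild type. After loess the log2 ratios were 0.00, 0.23 and −0.16. Before loess the normal growth ratio was −0.47, about the height of the loess curve there, and neither channel was brighter than 95% of empty spots. The recovery value stayed negative over the alternatives, from −0.36 to −0.16, whereas the water stress value was −0.51 under median centring.

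HST had net intensities of 30709, 29695 and 20636 in AhNF-YC-OE, against 23907, 29011 and 24121 in wild type. AhNF-YC-OE was the brighter under normal growth and the dimmer in recovery, with log2 ratios of 0.30, −0.24 and −0.27. The first ran from 0.29 to 0.73 over the alternatives, and median centring turned the other two to 0.83 and 0.32. AGO1, the slicer, had 27051, 26560 and 30922 in AhNF-YC-OE, against 30349, 28243 and 31060 in wild type. Its log2 ratios of −0.26, −0.33 and −0.17 were negative on all 3 arrays after loess, and under median centring they were 0.20, 0.71 and 0.53. The recovery value was also positive with nearby spots taken off, at 0.12, and with the row taken off, at 0.21.

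**Figure D2:**
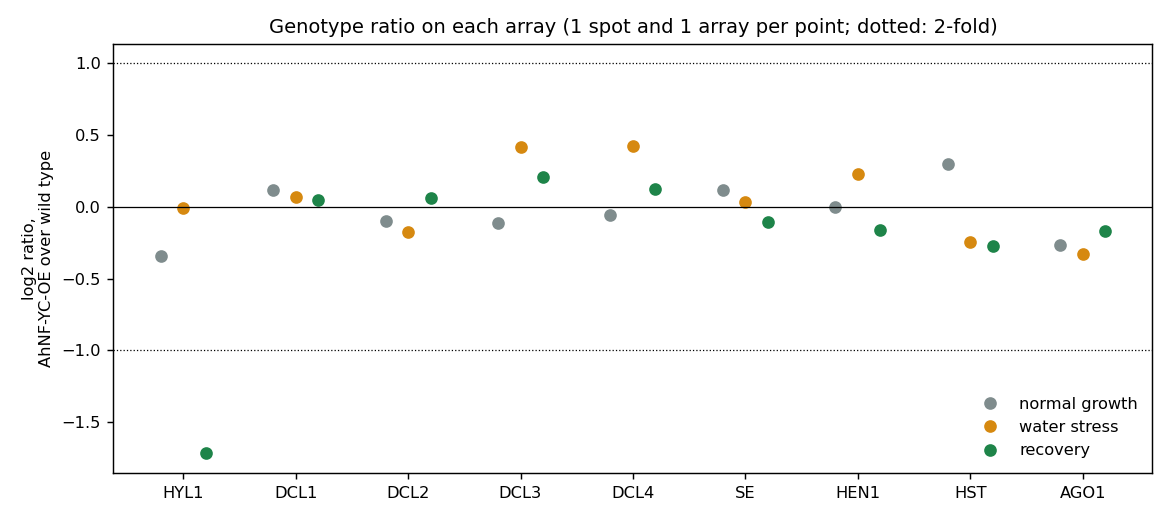
Genotype log2 ratio (AhNF-YC-OE over wild type) of each gene on each of the 3 arrays, coloured by state, 1 spot and 1 array per point, with dotted lines at 2-fold. HYL1 in recovery, at −1.72, is the point outside the lines, and the other 8 genes lie between −0.33 and 0.43.

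Counted over the set, 0 of 9 members were at least 2-fold higher or lower in AhNF-YC-OE under normal growth, where 0.0923% of 26009 genes were higher and 0.00769% lower. Under water stress 0 of 9 were past 2-fold, against 0.5% of 26012 genes higher and 0.334% lower. Without any within-array normalization 4 of 9 were lower on that array, HYL1 at −1.92, DCL3 at −1.50, DCL4 at −1.37 and HEN1 at −1.31. In recovery 0 of 9 were higher and 1 of 9, HYL1, was lower, against 0.0538% of 26006 genes higher and 0.385% lower. HYL1 in recovery is the value for which the set was chosen, so nothing is read from that count. The median log2 ratio of the 9 members was −0.06, 0.03 and −0.11, against −0.01, 0.00 and 0.00 over all genes. Without HYL1 the median of the other 8 was −0.03, 0.05 and −0.03.

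The size of the HYL1 ratio depended on the processing on each array, and in recovery it was past 2-fold under every processing. Before loess its log2 ratio was −0.60, −1.92 and −2.66, and the loess curve at its intensity stood at −0.26, −1.91 and −0.94. Under water stress the curve therefore took up nearly the whole raw difference of the spot, as it was fitted to other spots of the same brightness. In recovery the spot lay 1.72 below the curve. Over the alternative processings, the recovery ratio ran from −2.71, with plain background subtraction, to −1.35, with the median of nearby spots taken off, and was past 2-fold under each. The normal growth ratio ran from −1.18 to −0.17, and the water stress ratio from −1.13 with median centring to 0.56 with loess within print-tip blocks. In the authors' deposited table of normalized values, HYL1 stood at −0.79, 0.20 and −1.96.

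**Figure D3:**
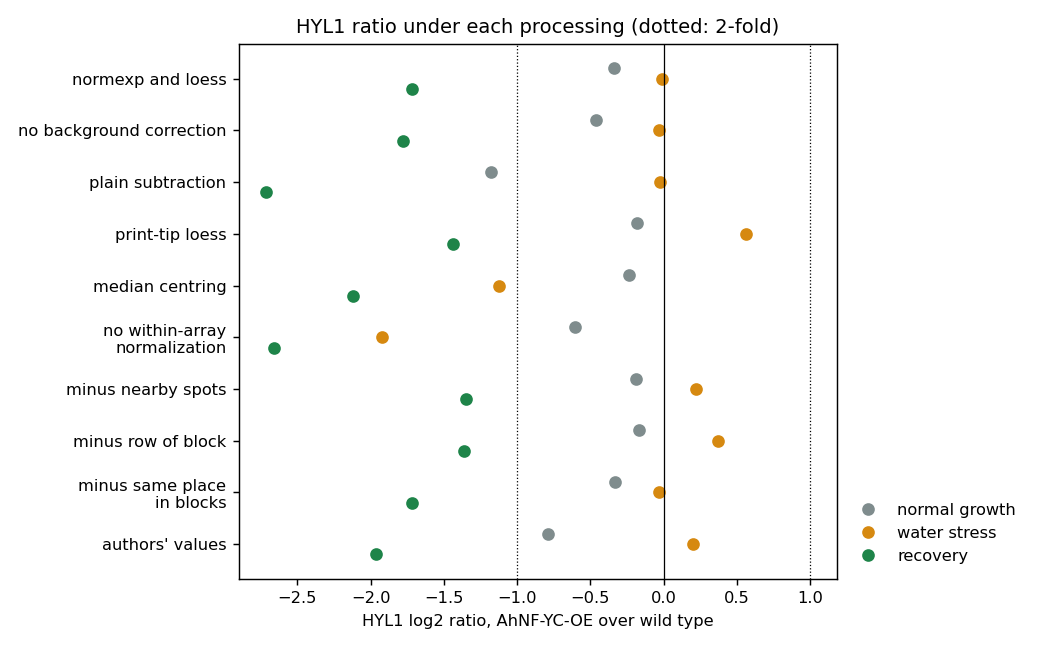
Genotype log2 ratio of HYL1 (AhNF-YC-OE over wild type) on each array under each processing, with a solid line at 0 and dotted lines at 2-fold. The recovery points lie between −2.71 and −1.35, left of the 2-fold line throughout, while the water stress points lie on both sides of 0.

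Other spots printed beside HYL1 were also lower in AhNF-YC-OE in recovery. The HYL1 spot is in column 4 of row 1 of its block, and the spot in column 5, annotated to AT1G09660, had log2 ratios of −0.25, −0.91 and −1.81. Its net intensity was 19.4, 18.4 and 28.0 in AhNF-YC-OE, against 70.8, 421 and 531 in wild type. The spot in column 6, annotated to AT1G09500 and named here after its values were seen, had log2 ratios of −0.11, −0.69 and −1.39. It had net intensities of 308, 26.0 and 32.2 in AhNF-YC-OE, against 519, 397 and 412 in wild type. The 3 spots thus formed a run of low ratios in recovery with low AhNF-YC-OE readings. On the other side, in column 3, SK41, a shaggy-like kinase, had log2 ratios of 0.07, 0.22 and −0.11 and lay outside the run. In the row below, EMB2719 had −0.50, AT1G20130 −0.49 and GH9B5 −0.52 in recovery.

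Lower spots were more frequent in row 1 of the blocks than on the whole slide, but not at the row and column that HYL1 holds in its block. The other 24 spots of the row had median log2 ratios of −0.16, −0.40 and −0.36, and 0, 1 and 2 of them were at least 2-fold lower. Over row 1 of all blocks, 33 of 1184 gene spots (2.79%) were at least 2-fold lower in recovery, against 0.4% of all gene spots. The shares under water stress were 1.1% in row 1, against 0.342% of all gene spots. The 47 gene spots at the same row and column in the other blocks had medians of 0.00, 0.04 and 0.01, and none was 2-fold lower, with −0.74 the lowest in recovery. In AhNF-YC-OE in recovery their lowest net intensity was 46.0 and their median 3222, against 23.1 for HYL1. None was as dim as HYL1 in that channel, so an effect of this place on such dim spots was not tested. Of 117 gene spots lower in recovery, 14 had another lower gene spot beside them in their row. Since the library follows locus order along the row near HYL1, neighbours on the slide are also near in locus number. With the median of nearby spots or of the row taken off, HYL1 stood at −1.35 and −1.36 in recovery. The part of the place on the slide in the HYL1 ratio was not tested further.

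**Figure D4:**
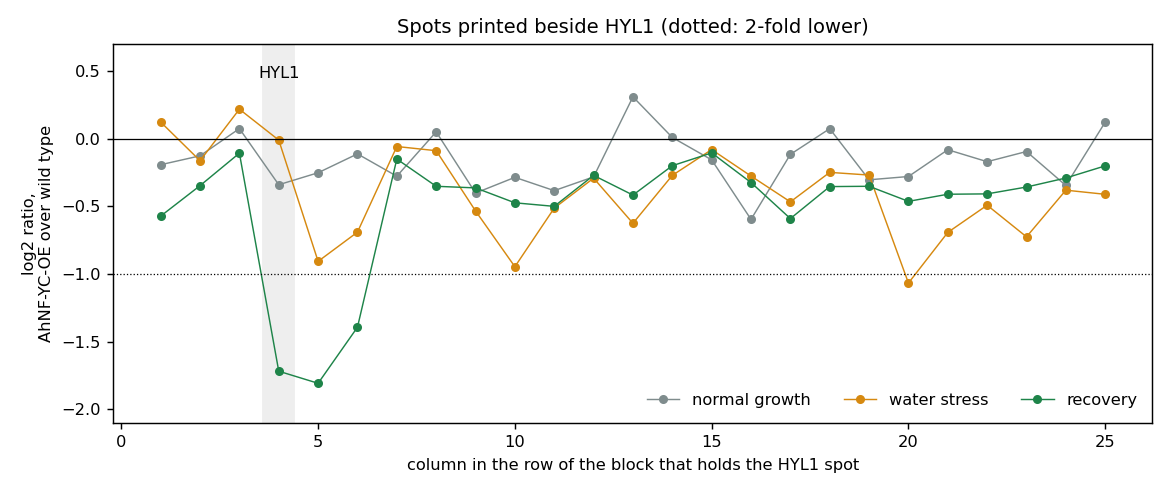
Genotype log2 ratio (AhNF-YC-OE over wild type) of the 25 spots in the row of the block that holds HYL1, by column, on each array, with a dotted line at 2-fold lower and the HYL1 column shaded. In recovery columns 4, 5 and 6 lie at −1.72, −1.81 and −1.39, and columns 3 and 7 on either side at −0.11 and −0.15.

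Between arrays, the genotype ratio of HYL1 was lower in recovery than in both other states, although state and array differ together in each of these values. The water stress ratio was 0.33 above that of normal growth, a difference that ran from −0.89 with median centring to 1.16 with plain subtraction and was −1.32 without within-array normalization. The difference of recovery minus normal growth was −1.38 and ran from −1.88 to −1.16 over the alternatives. That of recovery minus water stress was −1.71 and ran from −2.69 to −0.99, the last under median centring. Without within-array normalization the differences of recovery were −2.06 from normal growth and −0.74 from water stress. By difference of the ratio, 0 of 9 members were past 2-fold for water stress minus normal growth, where 0.8% of genes were. For recovery minus normal growth 1 of 9 was, HYL1, against 0.331% of genes. For recovery minus water stress 1 of 9 was, again HYL1, against 0.138%. Both differences hold the recovery ratio for which the set was chosen, so nothing is read from these counts. Among the other 8 genes the differences furthest from 0 were those of HST, at −0.54 for water stress minus normal growth and −0.57 for recovery minus normal growth.

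Within each genotype, HYL1 was past 2-fold between states in wild type and within it in AhNF-YC-OE, and the difference between the genotypes has no test. After Aquantile normalization, which gives the arrays a common distribution of mean intensity, its log2 level was 6.55, 6.91 and 7.20 in AhNF-YC-OE during normal growth, water stress and recovery, against 6.89, 6.92 and 8.92 in wild type. The wild-type level in recovery stood apart from the other 5 levels. Recovery over normal growth was 0.65 in AhNF-YC-OE and 2.03 in wild type on the log2 scale, and recovery over water stress was 0.29 in AhNF-YC-OE and 1.997 in wild type. The wild-type changes ran from 1.97 to 3.23 and from 1.47 to 2.95 over the alternatives. The change of AhNF-YC-OE in recovery over normal growth, which ran from 0.65 to 1.83, was past 2-fold with median scaling and with plain subtraction. That of AhNF-YC-OE in recovery over water stress ran from −0.23 to 0.29.

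HEN1 was the other gene past 2-fold, and it was so in both genotypes. Its recovery level was higher than that of normal growth by a log2 change of 1.18 in AhNF-YC-OE and 1.35 in wild type, and both stayed past 2-fold under every alternative. Its net intensities for normal growth and recovery, 239 and 270 in AhNF-YC-OE and 372 and 560 in wild type, were within 2-fold. The change past 2-fold thus rests on the scaling between arrays. Under normal growth neither channel of HEN1 was brighter than 95% of empty spots. DCL3 under water stress over normal growth stood at −0.44 in AhNF-YC-OE and −0.97 in wild type, and DCL4 at −0.23 in AhNF-YC-OE and −0.72 in wild type. Median scaling turned the DCL3 values to 1.04 in AhNF-YC-OE and 0.53 in wild type. HST stood at 0.39 in AhNF-YC-OE and 0.93 in wild type for the same pair of states. DCL1 lay between −0.12 and 0.25 in all comparisons of states in both genotypes. These changes depend on the scaling between arrays. Under median scaling DCL1 was past 2-fold for water stress over normal growth, at 1.22 in AhNF-YC-OE and 1.28 in wild type, and for recovery over normal growth, at 1.33 in AhNF-YC-OE and 1.41 in wild type. HST reached 1.58 in AhNF-YC-OE and 2.14 in wild type for water stress over normal growth, and DCL4 turned to 0.64 in AhNF-YC-OE and 0.17 in wild type. HYL1 reached 2.06 in AhNF-YC-OE and 1.75 in wild type for the same states.

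Counted over the set, water stress over normal growth had 0 of 9 members past 2-fold in AhNF-YC-OE, where 25.8% of genes were, and 0 of 9 in wild type, where 30.4% were. Recovery over normal growth had 1 of 9 in AhNF-YC-OE, against 28.7% of genes, and 2 of 9 in wild type, against 32.4%. Recovery over water stress had 0 of 9 in AhNF-YC-OE, against 6.71%, and 1 of 9 in wild type, against 7.9%. HYL1 is the last count and is also 1 of the 2 wild-type genes for recovery over normal growth. Its wild-type reading in recovery is part of the ratio by which the set was chosen, so nothing is read from these 2 counts.

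**Figure D5:**
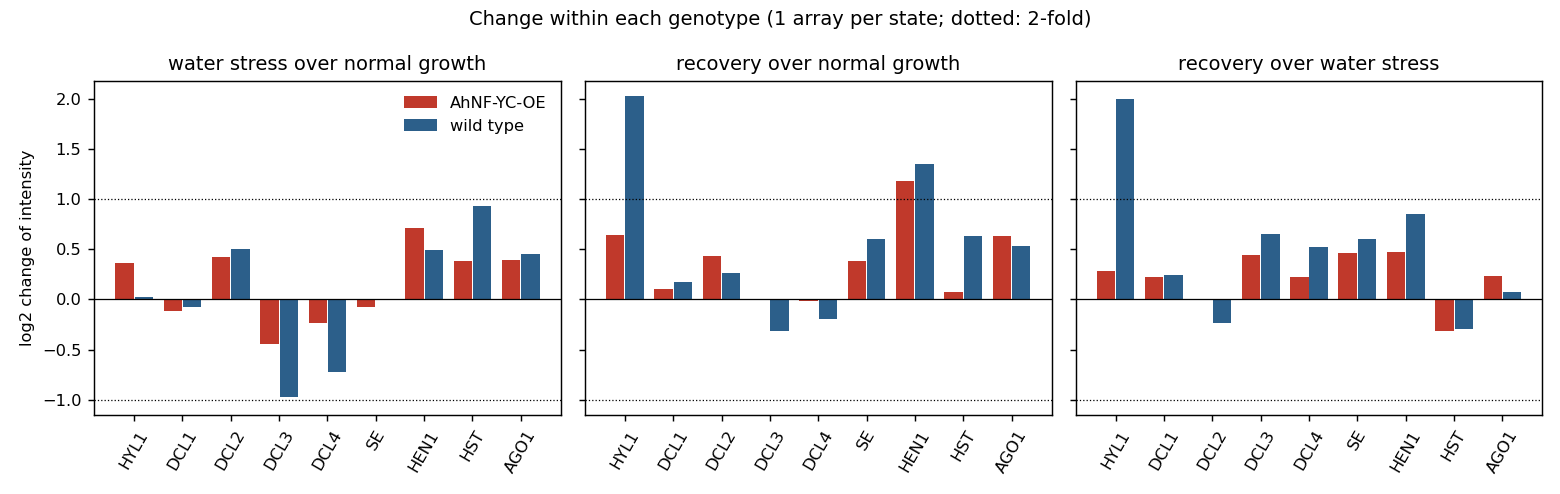
Log2 change of the single-channel intensity of each gene between states, in AhNF-YC-OE (left bar of each pair) and wild type (right bar), with dotted lines at 2-fold. The HYL1 bars in wild type reach 2.03 and 1.997 in the middle and right panels, where recovery is the later state, while those in AhNF-YC-OE are 0.65 and 0.29.

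The relatives of HYL1 did not share its ratio in recovery. The Arabidopsis double-stranded RNA binding family has 4 other measured members, and each was within 2-fold between genotypes on all arrays after loess. DRB2, which acts with DCL1 on some microRNAs, stood at 0.18, −0.21 and 0.01, and DRB3 at 0.18, 0.33 and 0.19. Under water stress DRB2 was −1.22 with median centring and −2.01 without within-array normalization. DRB4, the partner of DCL4, stood at −0.04, 0.07 and −0.01, and DRB5 at 0.16, 0.20 and 0.30. Without within-array normalization DRB4 was −1.04 under water stress. In recovery the net intensity of the DRB4 spot was 193 in AhNF-YC-OE and 391 in wild type.

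Among 48 other small RNA pathway genes, which include the DRB genes, argonautes, RNA-dependent RNA polymerases, microRNA processing partners, DNA methylation factors and turnover enzymes, 1 was past 2-fold between genotypes on any array. Under normal growth 0 of 48 were, with 26 below and 22 above 0 and a median log2 ratio of −0.04. The ends of that range were STA1, a splicing factor that affects microRNA levels, at 0.76, and MOS2, an RNA-binding protein of microRNA maturation, at 0.55. On the low side were NRPD1, the largest subunit of RNA polymerase IV, and URT1, a uridylyltransferase that tails small RNAs, both at −0.42. NRPD1 was not brighter than 95% of empty spots on that array. Under water stress 1 of 48 was higher and 0 were lower, with a median of 0.07. That gene was NRPD2A, the second-largest subunit of RNA polymerases IV and V, at 1.04, with net intensities of 34.6 in AhNF-YC-OE and 108 in wild type, neither brighter than 95% of empty spots. With loess within print-tip blocks it stood at 0.52 and with median centring at −0.08. DRM2, the DNA methyltransferase guided by siRNAs, stood at 0.84, URT1 at −0.58 and NRPD1 at −0.42. In recovery 0 of 48 were past 2-fold, with a median of 0.04. DRM2 was the highest at 0.65, followed by NRPD2A at 0.40. CLSY1, a chromatin remodeller of the polymerase IV pathway, was the lowest at −0.52, next to AGO6, an argonaute of DNA methylation, at −0.50. None of these was brighter than 95% of empty spots in either channel in recovery. CLSY1 read 10.2 in AhNF-YC-OE and 148 in wild type, and AGO6 27.0 in AhNF-YC-OE and 190 in wild type. With loess within print-tip blocks DRM2 was 0.56, NRPD2A 0.13, CLSY1 −0.53 and AGO6 −0.15. The 9 argonautes other than AGO1 had medians of −0.08, 0.05 and −0.01, and the 10 microRNA processing partners 0.04, 0.11 and 0.06.

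Among 59 genes whose mRNAs are targets of microRNAs or trans-acting siRNAs, 0 were past 2-fold between genotypes on each array. Their median log2 ratios were 0.03, 0.00 and −0.01, and in recovery 27 were above 0 and 32 below. CSD1, the copper/zinc superoxide dismutase targeted by miR398, was among the 2 highest on each array, at 0.33, 0.49 and 0.33. The ratios of CSD1 were smaller with loess within print-tip blocks, at 0.15, 0.31 and 0.18. In the authors' normalized values they were 0.14, 0.27 and 0.17. Its net intensities were 26880, 29893 and 24074 in AhNF-YC-OE, against 21495, 19055 and 18774 in wild type, so the AhNF-YC-OE reading was the higher on each array. The other high genes were GRF3, a growth-regulating factor targeted by miR396, at 0.32 under normal growth, REV, an HD-ZIP III factor targeted by miR166, at 0.43 under water stress, and TIR1, the auxin receptor targeted by miR393, at 0.33 in recovery. The low genes under normal growth were the miR156 targets SPL10, at −0.55, and SPL6, at −0.24. SPL10 has 2 spots, of which the brightest is given, and the mean over both was −0.18 on that array. Under water stress they were HAM3, a GRAS factor targeted by miR171, at −0.63, and ORE1, the NAC factor of leaf senescence targeted by miR164, at −0.55. In recovery TCP24, a leaf growth factor targeted by miR319, stood at −0.69 and the miR156 target SPL15 at −0.41. TCP24 in recovery, REV under water stress and SPL6 under normal growth were not brighter than 95% of empty spots in either channel. TCP24 read 10.6 in AhNF-YC-OE and 174 in wild type. Under water stress HAM3 and ORE1 passed that level in wild type alone, with 32.6 and 29.9 in AhNF-YC-OE. With loess within print-tip blocks TCP24 was −0.73, REV 0.28, HAM3 −0.44 and ORE1 −0.07. Levels of the small RNAs themselves were not analysed here.

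The genes whose 3 ratios lay nearest to those of HYL1 were also dim spots in AhNF-YC-OE. By Euclidean distance over the log2 ratios of the 3 arrays, among 25998 genes above background, the 5 nearest with a symbol were MYB110 at 0.357, MAP3KA at 0.413, NTMC2T6.1 at 0.476, PMZ at 0.633 and ROPGEF11 at 0.682. With 3 points per gene this likeness is a description only. Their ratios in recovery were −1.41, −1.51, −1.28, −1.10 and −1.08. The net intensity of MYB110 in recovery was 27.3 in AhNF-YC-OE and 394 in wild type, and that of MAP3KA was 20.5 in AhNF-YC-OE and 393 in wild type. MAP3KA and NTMC2T6.1 were printed at row 4, column 4 of different blocks, where 16 of 44 gene spots were at least 2-fold lower in recovery. MYB110 and PMZ were at row 13, column 5, where 9 of 44 were. These places held more of the lower spots of recovery than the place of HYL1 in its block, where HYL1 was the one lower spot. The other spots at the place of HYL1 read 46.0 or more in AhNF-YC-OE in recovery and were brighter than HYL1. Whether the place on the slide lowered the ratio of HYL1 or of these 5 genes was not tested.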

How the data were processed

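The authors deposited scanner tables with the mean intensity of each spot and its local background in both channels, per the file headers, and tables of normalized intensity with their log2 ratio (Cy5 over Cy3). The scanner, the software and the authors' normalization are in none of the sources used here. The deposited net intensity of AhNF-YC-OE is rescaled, so net intensity was computed as spot minus background. A deposited series table repeats the log2 ratios and was used only to check them.

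Gene names are those of TAIR release 7 locus codes on the array, updated through a RefSeq table that held 25818 of 26017 loci. Of 133 list entries, 129 had their symbol there, and AGO8, RDR3, RDR4 and RDR5 were matched by locus code. Where a locus has several probes, the brightest stands for it.

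Background was corrected by normexp with an offset of 50, ratios by loess over intensity per array, giving weight 0 to control and empty spots, and single channels by Aquantile (limma 3.58.1, R 4.3.3). Lists were handled in Python 3.11.15 with pandas 2.3.3 and numpy 2.4.6. The normalization was run on simulated data with folds set in brighter spots only and a dye difference that did not vary with intensity. That simulation says nothing of dim spots such as the HYL1 spot. A gene was counted when its log2 value was at least 1 in size and its brighter channel above the local background mean plus 2 SD. With 1 array per state no test was made, and precision is limited by the number of arrays.

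The members, lists and rules were chosen with earlier results of these data known. Named were all members, the DRB family, list genes past 2-fold, the 2 highest and 2 lowest of each list per array, the 5 genes most like HYL1 and its slide neighbours. Alternatives were other background corrections, normalizations, filters, thresholds, the authors' values and corrections for slide position.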

Additional observations from a re-analysis of the deposited data

Results flagged for a closer look

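For 3 genes of the set the genotype log2 ratio lay above 0 on one array and below 0 on another, each by more than the median SD of control spots. The differences were not tested, as each rests on 1 spot and 1 array per state, and state and array differ together. DCL3 stood at 0.42 under water stress and at −0.11 under normal growth, a difference of 0.53, and its recovery value of 0.21 lay 0.32 above that of normal growth. Median centring gave −0.56 and −0.11 for these differences. HEN1 stood at −0.16 in recovery and at 0.23 under water stress, a difference of −0.39, which ran from −0.46 to 0.15 over the alternatives. HST stood at −0.24 under water stress and −0.27 in recovery, against 0.30 under normal growth, with differences of −0.54 and −0.57. The difference of HST in recovery ran from −0.57 to −0.41 over the alternatives, and that under water stress reached 0.10.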

How the results depend on the processing

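HYL1 was the 1 member at least 2-fold lower in recovery under every alternative. No member ratio past 2-fold turned its sign under an alternative. Some within 2-fold did and then passed it: DCL3, DCL4 and HEN1 under water stress without normalization, at −1.50, −1.37 and −1.31, and, under median scaling of AhNF-YC-OE for water stress over normal growth, DCL1 at 1.22 and DCL3 at 1.04. Of 270 member ratios under alternatives, 162 moved by less than the control-spot SD and 108 by more. That count includes the settings added after seeing the data. It also includes the mean over all spots of a locus, which cannot move because each member has 1 spot. Median centring gave 1 member higher and 1 lower under water stress, plain subtraction 1 lower under normal growth, and no within-array normalization, added after seeing the data, 4 lower under water stress. By difference of ratios, water stress minus normal growth had 1 member with plain subtraction, the authors' values and no normalization, and recovery minus water stress had 0 with median centring and no normalization. Between states, median scaling gave 6 members past 2-fold in AhNF-YC-OE and 5 in wild type for both states over normal growth. Plain subtraction gave 1 and 2 in AhNF-YC-OE for water stress and recovery over normal growth, and in wild type 1 for water stress over normal growth and 2 for recovery over water stress. Print-tip loess gave 1 in wild type under water stress over normal growth.

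Over all genes, median centring gave 420 higher under normal growth, 1838 higher and 3582 lower under water stress, and 151 higher and 385 lower in recovery. Plain subtraction gave 41 and 16, 334 and 391, and 125 and 331 in the same order. The authors' values gave 14 and 11 under normal growth, 242 lower under water stress, and 58 and 192 in recovery. Print-tip loess gave 13 higher under normal growth, 49 lower under water stress, and 27 and 54 in recovery. Taking off nearby spots gave 15 higher, 47 lower, and 24 and 54, and taking off the row 37 lower under water stress and 24 and 53 in recovery. Taking off the same place in every block, added after seeing the data, gave 54 lower in recovery. No normalization gave 38 and 71, 4 and 10464, and 0 and 3511. No background correction gave 32 higher and no filter 23 higher in recovery. Genes brighter than 95% of empty spots gave 1 lower under normal growth, 4 higher under water stress and 1 higher in recovery. At 1.5-fold the counts were 320 and 127, 481 and 910, and 118 and 437. The counts of genes whose ratio differed between arrays ran from 23 to 6156, and those of genes changed within a genotype from 1693 to 14264.

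Of the 48 pathway genes, median centring gave 1 higher under normal growth, 5 higher and 6 lower under water stress and 1 lower in recovery. Plain subtraction gave 2 higher under water stress and 1 each way in recovery. The authors' values gave 1 lower under normal growth and 1 each way in recovery. No normalization gave 0 higher and 23 lower under water stress and 6 lower in recovery. Print-tip loess, both subtractions of neighbours and the empty-spot filter gave 0 higher under water stress. At 1.5-fold 1, 3 and 1 were higher on the 3 arrays. Of the 59 targets, median centring gave 5 higher and 9 lower under water stress and 1 lower in recovery, the authors' values and 1.5-fold 1 lower on each of those arrays, plain subtraction 1 lower in recovery, and no normalization 26 and 7 lower.

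The cause of these shifts was not tested. No paired analysis was possible because each state has 1 sample. HYL1, DCL3, DCL4 and HEN1 were near the level of empty spots on some or all arrays, and their ratios rest on few scanner units above background.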

Other observations

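URT1, a uridylyltransferase that tails unmethylated microRNAs and mRNAs, had log2 ratios of −0.42, −0.58 and −0.43. The ratios were smaller with loess within print-tip blocks, at −0.26, −0.41 and −0.18, and in the authors' deposited table of normalized values, at −0.32, −0.47 and −0.19. Its net intensities were 5133, 378 and 539 in AhNF-YC-OE during normal growth, water stress and recovery, against 9070, 1206 and 1166 in wild type. The AhNF-YC-OE reading was the lower on each array. The 8 small RNA turnover genes, of which URT1 is one, had median log2 ratios of −0.12, −0.00 and −0.16. DRM2, the DNA methyltransferase of the siRNA pathway, ran the other way, at 0.38, 0.84 and 0.65. Median centring gave 0.24, 0.20 and 0.17 and plain subtraction 0.40, 1.00 and 1.33, and without within-array normalization the values were −0.13, −0.60 and −0.37. Its net intensities were 1799, 220 and 49.4 in AhNF-YC-OE, against 1986, 361 and 82.4 in wild type. The normal growth and recovery readings lay below the 95% level of empty spots in both channels. Any dye bias of these spots is in all 3 values, and neither value has a second spot.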
